A study of Sus scrofa with 15 samples.

Results

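The genes described here are death and costimulatory receptors of the TNF receptor superfamily, listed by gene symbol: *CD27*, *FAS*, *TNFRSF1A*, *TNFRSF1B*, *TNFRSF4*, *TNFRSF9*, *TNFRSF14*, *TNFRSF18*, *TNFRSF25* and *LTBR*. Of the 10 receptors listed, 9 had a row of that name among the 29886 genes counted. No row carried the name *TNFRSF14*, so that receptor was not analysed here. At least 1 read was counted for 8 receptors, and 5 of them (*CD27*, *FAS*, *TNFRSF1A*, *TNFRSF1B* and *TNFRSF9*) passed edgeR's default filter on low counts, as did 10939 genes in all.

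The counts come from 15 RNA-seq libraries of natural killer (NK) cells sorted from 5 pigs, 6 months old, with all 3 populations taken from each animal. The populations were blood CD8α high NK cells, CD8α high NK cells washed out of the liver through the portal vein, and CD8α dim NK cells from the same liver perfusate, the liver-resident NK (lrNK) cells. All were sorted as cells without CD3 and CD172a, and no treatment or genetic change was described for the animals. Library preparation primed at poly(A) tails and read from there, so counts do not grow with transcript length, and totals ran from 2874092 to 3823973 in blood, from 2886686 to 5680221 in liver CD8α high and from 2003499 to 3776823 in lrNK libraries.

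Receptors of this family are membrane proteins with cysteine-rich repeats outside the cell, and most bind trimeric ligands of the TNF superfamily. Death receptors such as FAS carry a cytoplasmic death domain that recruits FADD and caspase-8, whereas costimulatory receptors such as TNFR2, 4-1BB and CD27 lack it and recruit TRAF adaptors that feed into NF-κB and MAP kinase signalling. In NK cells the costimulatory receptors are known to support survival, proliferation and cytokine release, and FAS to make activated cells sensitive to FAS ligand.

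Levels are given in CPM, counts scaled by library size after TMM, as mean ± SD over the 5 pigs. Some libraries stood apart over all genes. In a principal component analysis of the 500 genes that varied most, the liver CD8α high library of pig 1 scored -8.51 on the first component (69.0% of the variance), nearest to the lrNK libraries, while the other liver CD8α high libraries lay between -37.2 and -24.9. On the second component (5.87%), pig 3 in lrNK cells scored 35.2 and the other lrNK libraries lay between -16.0 and -3.16.

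Markers fit the sort in part. All 14 NK cell markers were counted, with a summed level of 5729 ± 561 CPM in blood, 6017 ± 406 CPM in liver CD8α high and 5955 ± 1326 CPM in lrNK cells, and *NKG7* as the most abundant over all 15 libraries. These similar sums hold markers that differed in both directions. In lrNK cells 6 of the 14 were higher (*EOMES*, *NCR1*, *KLRB1*, *KLRD1*, *CD244* and *NKG7*) and 5 lower (*CD8A*, *NCR3*, *GZMB*, *TBX21* and *FCGR3A*) than in blood, and the same genes except *KLRD1* differed in the same direction from liver CD8α high cells. Without the lrNK library of pig 3 *NKG7* passed in neither comparison (0.46 and 0.47, adjusted p = 0.0567 and 0.0641, edgeR, Benjamini-Hochberg). Of 11 T cell markers, *CD4*, *CD5*, *CD28* and *CTLA4* were at 0 in every library. The sum of the T cell markers was 1171 ± 203, 1137 ± 172 and 725 ± 187 CPM in blood, liver CD8α high and lrNK cells. *CD3G* had 865 ± 206, 825 ± 151 and 289 ± 201 CPM of it, although the cells were sorted without surface CD3, and in lrNK cells *CD247* had more (415 ± 142 CPM). *CD3G* was lower in lrNK cells in 5 of 5 pigs, by -1.58 against blood and -1.51 against liver CD8α high cells on the log2 scale (adjusted p = 0.00216 and 0.00374, edgeR, Benjamini-Hochberg), and *CD247* was higher in 5 of 5 pigs, by 0.54 in both comparisons (adjusted p = 0.0379 and 0.0479, edgeR, Benjamini-Hochberg). In lrNK cells of pig 3 *CD247* was at 669 CPM and in the others at 331 to 362 CPM, and without that library neither difference passed (0.32 and 0.30, adjusted p = 0.0924 and 0.145, edgeR, Benjamini-Hochberg). B cell markers differed between the populations: their summed level was 109 ± 39.5 CPM in blood, 52.9 ± 18.0 CPM in liver CD8α high and 654 ± 298 CPM in lrNK cells. In the lrNK libraries of pigs 1 to 5 this sum was 620.5, 954, 369.7, 966 and 359 CPM. The most abundant B cell marker in lrNK cells was *MS4A1*, at 267 ± 134 CPM, and *CD79A* was at 0 in every library. Of the 8 B cell markers tested, 7 were higher in lrNK cells than in blood and than in liver CD8α high cells, among them *MS4A1*, *CD79B*, *PAX5*, *BANK1*, *CD22* and *EBF1*, and without pig 2 the count against blood was 3. Myeloid markers summed to 84.0 ± 28.6, 90.6 ± 16.4 and 167 ± 61.9 CPM in blood, liver CD8α high and lrNK cells, most of it *CD86*, with *CSF1R*, *CD163*, *MARCO* and *MS4A7* at 0 in every library. *CD86* was higher in lrNK cells than in blood in 4 of 5 pigs (0.95, adjusted p = 0.0125, edgeR, Benjamini-Hochberg) and than in liver CD8α high cells in 5 of 5 (0.80, adjusted p = 0.0381), and *LYZ* only than in the latter in 4 of 5 (4.57, adjusted p = 0.0271). With the pig as a block *CD247* and *LYZ* lost their calls against liver CD8α high cells and *CD3E* gained a call there (-2.77, adjusted p = 0.0584, 0.0512 and 0.0418, edgeR, Benjamini-Hochberg). Hepatocyte markers summed to at most 9.74 CPM in any library, with *ALB* as the most abundant and *APOA1*, *APOA2*, *TTR*, *SERPINA1* and *FGA* at 0. Endothelial markers summed to at most 2.64 CPM, with *KDR* as the most abundant and *CDH5*, *STAB2*, *LYVE1* and *EGFL7* at 0. Erythroid and platelet markers, led by *HBB*, reached 317 CPM in the blood library of pig 4 and at most 56.6 CPM in the others.

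Among the receptors, *FAS* was higher in lrNK cells than in both CD8α high populations, by a factor of 2.70 to 13.5 over blood within the 5 pigs, and no lrNK library overlapped the others. *TNFRSF1B* was lower in lrNK cells than in liver CD8α high cells, a call lost in 5 of 13 alternatives. *TNFRSF9* and *CD27* had higher means in lrNK cells, but their differences did not pass the test, and *TNFRSF4*, *TNFRSF18*, *TNFRSF25* and *LTBR* had few or no reads. Of the 5 receptors tested, 1 passed an adjusted p of 0.05 between lrNK and blood cells, higher in lrNK, while 18.2% of all 10939 genes tested did (8.62% higher and 9.6% lower in lrNK). Between lrNK and liver CD8α high cells 2 of 5 passed, 1 in each direction, while 14.6% of all genes did (6.96% higher and 7.68% lower in lrNK). Between liver and blood CD8α high cells edgeR's quasi-likelihood test called 0 of 5 receptors and 0.064% of all genes. In that comparison 1 receptor, *FAS*, had an unadjusted p under 0.05, and DESeq2 called 0 receptors. These counts come from a fit without the pairing of populations within pigs. With the pig as a block 2 receptors were called between lrNK and blood (*FAS* and *TNFRSF1B*), with 19.4% of all genes, and 3 between lrNK and liver CD8α high cells (*FAS*, *TNFRSF1B* and *TNFRSF1A*), with 15.7%. The blocked fit without the lrNK library of pig 3 did not call *TNFRSF1A* against liver CD8α high cells (-0.44, adjusted p = 0.0603, edgeR, Benjamini-Hochberg). With 5 receptors tested, the counts are too small to set the receptors apart from all genes. The 3 comparisons share libraries, so each is given by its own values.

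**Figure D1:**
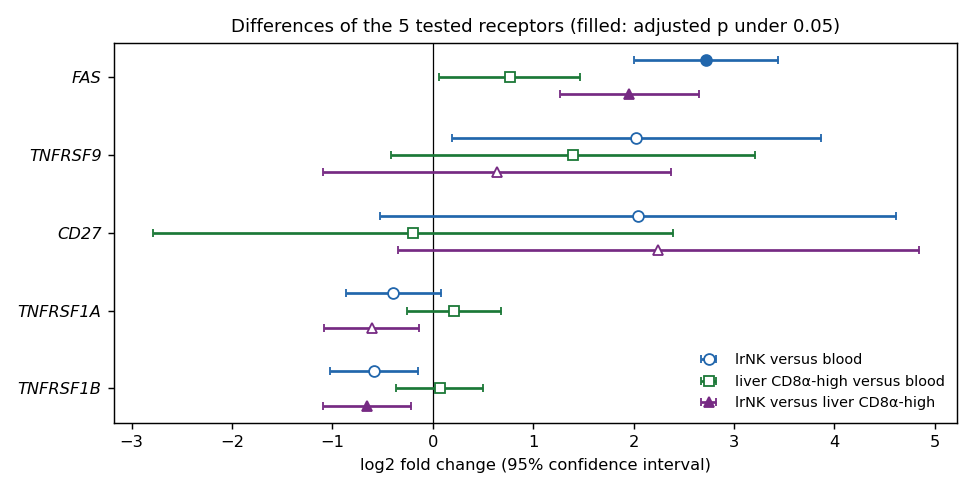
Log2 fold change (x axis) of the 5 receptors that passed the filter (rows) in lrNK versus blood (circles), liver CD8α high versus blood (squares) and lrNK versus liver CD8α high cells (triangles), with bars for the 95% confidence interval, n = 5 pigs in each population. Filled symbols, adjusted p under 0.05, are *FAS* in both lrNK comparisons (2.72 and 1.96) and *TNFRSF1B* against liver CD8α high cells (-0.66).

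Of the death receptors, *FAS*, the receptor of FAS ligand, is located on chromosome 14, between 100927305 and 100954781 in Sscrofa11.1. Levels in blood cells of pigs 1 to 5 were 6.50, 20.8, 10.9, 6.50 and 6.82 CPM. In liver CD8α high cells it was 22.1, 25.3, 16.7, 13.3 and 11.2 CPM, and in lrNK cells 80.2, 56.2, 58.9, 55.0 and 92.5 CPM. Every lrNK library was thus above every CD8α high library, while the blood and liver CD8α high libraries overlapped, with pig 2 the highest of each. The means were 10.3 ± 6.17 CPM in blood, 17.7 ± 5.91 CPM in liver CD8α high and 68.6 ± 16.8 CPM in lrNK cells (SD, n = 5).

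*FAS* in lrNK cells had a log2 fold change of 2.72 over blood (standard error 0.35, 95% confidence interval 2.00 to 3.44), and was higher in 5 of 5 pigs (edgeR's quasi-likelihood test, Benjamini-Hochberg adjusted p = 6.91e-06). Within pigs 1 to 5 the ratio of lrNK to blood CPM was 12.3, 2.70, 5.43, 8.46 and 13.5. The smallest ratio was that of pig 2, whose blood library had the highest *FAS* level of its population. Over liver CD8α high cells it was 1.96 (standard error 0.33, 95% confidence interval 1.26 to 2.65), again higher in 5 of 5 pigs (adjusted p = 0.000253, edgeR, Benjamini-Hochberg). Between liver and blood CD8α high cells *FAS* was higher in liver in 5 of 5 pigs, with a log2 fold change of 0.77 (95% confidence interval 0.06 to 1.47), and did not pass the correction (unadjusted p = 0.0342, adjusted p = 0.941, edgeR, Benjamini-Hochberg). In such bulk samples, a share of cells with more *FAS* and more *FAS* RNA in each cell cannot be told apart.

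The B cell marker sum was also higher in lrNK libraries, and its part in the *FAS* difference was not tested. The 3 genes whose log2 levels followed *FAS* most closely over the 15 libraries were *SDC1* (Pearson r = 0.94), *ASB2* (r = 0.94) and *IPCEF1* (r = 0.94), a description that rests mainly on the gap between lrNK and CD8α high libraries. *SDC1*, which encodes the proteoglycan syndecan-1, was at 0 in all 5 blood libraries and at 29.7 ± 9.58 CPM in lrNK cells. A count of 0 over the 5 blood libraries allows a level of up to 0.179 CPM, 3 counts over their summed size, and such floors cover counting error only. *IPCEF1* had 52.9 ± 18.9 CPM in blood, 99.8 ± 69.7 CPM in liver CD8α high and 602 ± 67.6 CPM in lrNK cells.

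*TNFRSF1A* encodes TNFR1, the death-domain receptor of TNF, and lies on chromosome 5 from 64319349 to 64331876. Its levels in blood cells of pigs 1 to 5 were 95.4, 99.0, 123, 129 and 145 CPM. They were 133, 119, 133, 153 and 148 CPM in liver CD8α high cells and 102, 69.6, 40.9, 125 and 110.2 CPM in lrNK cells. The lrNK library of pig 3 was the lowest of all, and each pig had less in lrNK than in liver CD8α high cells, although the populations overlapped. The means followed the order liver CD8α high (137 ± 13.7 CPM), blood (118 ± 20.9 CPM) and lrNK (89.6 ± 34.0 CPM).

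The log2 fold change of *TNFRSF1A* between lrNK and liver CD8α high cells was -0.61 (95% confidence interval -1.08 to -0.13), lower in 5 of 5 pigs, and missed the threshold (adjusted p = 0.0849, edgeR, Benjamini-Hochberg). Blocked by pig it was -0.66 and passed (adjusted p = 0.0344, edgeR, Benjamini-Hochberg). That blocked call was lost without the lrNK library of pig 3 (-0.44, adjusted p = 0.0603, edgeR, Benjamini-Hochberg). Between lrNK and blood cells the log2 fold change was -0.39 (95% confidence interval -0.87 to 0.08), lower in 4 of 5 pigs (adjusted p = 0.270, edgeR, Benjamini-Hochberg). Liver CD8α high cells had more than blood in 5 of 5 pigs, by a log2 fold change of 0.21 with an interval from -0.26 to 0.68, which did not pass either.

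These reads cannot be assigned to *TNFRSF1A* with certainty. Its annotated end shares 410 bases with *PLEKHG6*, which runs from 64331467 to 64350680. Both genes had the same count in 8 of 15 libraries, and the largest difference was 8 counts. Over all libraries 6110 reads were counted for *TNFRSF1A* and 6120 for *PLEKHG6*, so nearly every read may have been counted for both, and from which gene they came cannot be told apart. The values above therefore hold for this shared locus.

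*TNFRSF25* encodes DR3, the death receptor of TL1A, and lies on chromosome 6 from 67316818 to 67321442, wholly within *PLEKHG5* (67316818 to 67373787). It was counted 3, 5, 23, 0 and 0 times in the blood libraries of pigs 1 to 5, from 0 to 6 times per liver CD8α high library and from 0 to 6 times per lrNK library. *TNFRSF25* thus had few counts throughout, with pig 3 in blood as the only library above 6 counts. Of 10 libraries with a read of either gene, 8 had the same count for both, and the totals were 50 reads for *TNFRSF25* and 61 for *PLEKHG5*. From which gene the reads of equal count came cannot be told apart.

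Among receptors that lack a death domain, *TNFRSF1B* encodes TNFR2, the other receptor of TNF, and lies on chromosome 6 from 72195420 to 72231146. Its level in blood cells of pigs 1 to 5 was 161, 182, 169, 159 and 179 CPM. In liver CD8α high cells it was 163, 208, 191, 148 and 180.1 CPM, and in lrNK cells 65.2, 108, 182, 82.6 and 129 CPM. The lrNK libraries of pigs 1, 2, 4 and 5 were below every CD8α high library, whereas that of pig 3, which stood apart on the second component, was within the range of both CD8α high populations. The means were 170.0 ± 10.4 CPM in blood, 178 ± 23.5 CPM in liver CD8α high and 113 ± 45.3 CPM in lrNK cells, and blood and liver CD8α high cells differed by less than their spread.

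*TNFRSF1B* in lrNK cells had a log2 fold change of -0.66 from liver CD8α high cells (standard error 0.21, 95% confidence interval -1.09 to -0.22), lower in 5 of 5 pigs (edgeR's quasi-likelihood test, Benjamini-Hochberg adjusted p = 0.0385). This call was lost without pig 1, 2, 4 or 5 (adjusted p = 0.115, 0.179, 0.104 and 0.100, edgeR, Benjamini-Hochberg) and when only these populations were fitted (adjusted p = 0.0898, edgeR, Benjamini-Hochberg). The log2 fold change from blood was -0.59 (standard error 0.21, 95% confidence interval -1.02 to -0.15), lower in 4 of 5 pigs, and just missed the threshold (adjusted p = 0.0564, edgeR, Benjamini-Hochberg). It passed when the pig was blocked (-0.65 with an adjusted p of 0.0169, edgeR, Benjamini-Hochberg), without pig 3 (-0.82, adjusted p = 0.00687, edgeR, Benjamini-Hochberg) and without the lrNK library of pig 3 alone (-0.80, adjusted p = 0.00265, edgeR, Benjamini-Hochberg). Between liver and blood CD8α high cells the log2 fold change of *TNFRSF1B* was 0.07, with an interval from -0.36 to 0.50.

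In lrNK cells of pig 3 the *TNFRSF1B* level was the highest and that of the locus shared by *TNFRSF1A* and *PLEKHG6* the lowest of the lrNK libraries. The ratio of *TNFRSF1B* counts to those of the shared locus was 4.44 in that library and 0.638 to 1.55 in the other lrNK libraries. It was 1.47 ± 0.274 in blood and 1.32 ± 0.294 in liver CD8α high cells, without a library above 1.84. The 3 genes most like *TNFRSF1B* over the 15 libraries were *PINK1* (Pearson r = 0.95), *HDAC4* (r = 0.92) and *PORCN* (r = 0.92), at means of at most 34.9 CPM in any population. In lrNK cells *HDAC4* had 4.34 ± 4.95 CPM and *PORCN* 5.61 ± 7.61 CPM, spreads above their means. How far these correlations rest on the lrNK library of pig 3 was not tested.

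**Figure D2:**
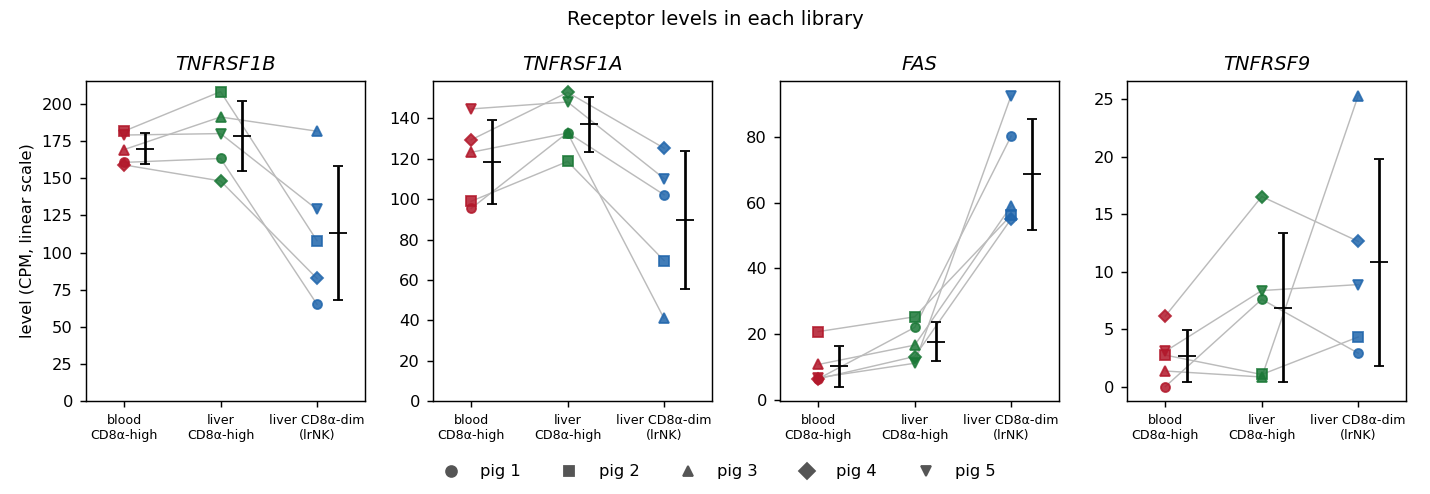
Level in CPM (y axis, linear scale, a separate range for each panel) of *TNFRSF1B*, *TNFRSF1A* (reads shared with *PLEKHG6*), *FAS* and *TNFRSF9* in blood CD8α high, liver CD8α high and lrNK libraries, with 1 symbol shape per pig, grey lines joining libraries of a pig, and black bars for mean ± SD, n = 5. All lrNK symbols of *FAS* lie above the CD8α high symbols, and pig 3 is the highest lrNK symbol of *TNFRSF1B* and *TNFRSF9* and the lowest of *TNFRSF1A*.

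*TNFRSF9* encodes 4-1BB, a costimulatory receptor induced on activated NK and T cells, and lies on chromosome 6 from 68590562 to 68609784. In blood cells of pigs 1 to 5 its level was 0, 2.74, 1.36, 6.14 and 3.07 CPM. It was 7.60, 1.05, 0.836, 16.5 and 8.36 CPM in liver CD8α high cells and 2.91, 4.32, 25.3, 12.6 and 8.88 CPM in lrNK cells. No library had more than 96 counts, and the populations overlapped, with the highest lrNK level again in pig 3. The means followed the order blood (2.66 ± 2.30 CPM), liver CD8α high (6.88 ± 6.45 CPM) and lrNK (10.8 ± 8.98 CPM), and neighbours in this order did not differ beyond their spread.

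Between lrNK and blood cells the log2 fold change of *TNFRSF9* was 2.03 (standard error 0.88, 95% confidence interval 0.19 to 3.87), higher in 5 of 5 pigs, and did not pass the correction (unadjusted p = 0.0323, adjusted p = 0.125, edgeR, Benjamini-Hochberg). Between liver and blood CD8α high cells it was 1.39 (95% confidence interval -0.42 to 3.20), higher in 3 of 5 pigs. Between lrNK and liver CD8α high cells it was 0.64 (adjusted p = 0.714, edgeR, Benjamini-Hochberg), higher in 3 of 5 pigs, and its sign turned without pig 3 (-0.22). At these counts the direction of *TNFRSF9* between the liver populations was not settled.

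*CD27*, the receptor of CD70, marks maturation stages of NK cells in mice and memory B cells in humans, and lies on chromosome 5 from 64197594 to 64202236. Its level in blood cells of pigs 1 to 5 was 3.25, 0, 0, 1.08 and 0 CPM. In liver CD8α high cells it was 2.76, 0.791, 0, 0 and 0.478 CPM, and in lrNK cells 7.89, 0.960, 4.38, 3.65 and 1.83 CPM. Each pig had more in lrNK than in its CD8α high libraries, yet the populations overlapped and no library had more than 19 counts. The log2 fold change between these liver populations was 2.25 (standard error 1.25, 95% confidence interval -0.35 to 4.84), higher in 5 of 5 pigs, and did not pass the test (adjusted p = 0.280, edgeR, Benjamini-Hochberg). Over 10 alternatives this log2 fold change ran from 1.87 to 3.45 without a call. Between lrNK and blood cells it was 2.05 (95% confidence interval -0.52 to 4.61), also higher in 5 of 5 pigs, and did not pass (adjusted p = 0.292, edgeR, Benjamini-Hochberg). Between liver and blood CD8α high cells, with 13 and 15 reads in all, the log2 fold change of *CD27* was -0.20, and its sign turned without pig 4 (0.23) and with the pig as a block (0.28). B cell markers were higher in lrNK cells, and their part in the *CD27* values was not tested.

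The remaining costimulatory receptors were close to the limit of detection. *TNFRSF4*, which encodes OX40, had 0 reads in all 15 libraries, which allows a level of up to 0.0589 CPM over all of them. *TNFRSF18*, which encodes GITR and lies close to *TNFRSF4* on chromosome 6, was not detected in blood, with at most 3 counts per library. It had 14 counts in the liver CD8α high library of pig 2 and at most 1 in the others of that population. In lrNK libraries of pigs 1 to 5 *TNFRSF18* was counted 8, 1, 0, 0 and 14 times. *LTBR*, the lymphotoxin β receptor, had 5 counts in the lrNK library of pig 2 and 0 in the other 14 libraries. Its 0 counts allow up to 0.179 CPM in blood and 0.148 CPM in liver CD8α high cells. None of these receptors passed the filter, and no test is given for them.

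Ligands of these receptors were set beside them, from a list of 18 ligands of the TNF superfamily, of which 11 were tested. In lrNK cells 4 of the 11 were higher and 0 lower than in blood, with a median log2 fold change of 0.97 beside 0.01 over all genes, of which 8.62% were higher and 9.6% lower. Against liver CD8α high cells 4 were higher and 0 lower, with a median of 0.62 beside 0.02 and shares of 6.96% and 7.68%. These calls are from edgeR's quasi-likelihood test; over both directions 7 and 6 ligands had an unadjusted p under 0.05, and DESeq2 called 6 and 4. The summed B cell and myeloid markers were also at higher means in lrNK libraries (654 and 167 CPM), and their part in the ligand values was not tested.

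*TNFSF9*, the ligand of 4-1BB, was at 6.48 to 18.4 CPM in blood libraries. Its level in liver CD8α high cells of pigs 1 to 5 was 54.2, 16.9, 17.0, 9.65 and 7.88 CPM, and in lrNK cells 259.6, 157, 115, 219 and 195 CPM. All lrNK libraries were above all others, and the liver CD8α high library of pig 1, nearest to the lrNK libraries on the first component, was the highest of its population. The log2 fold change of *TNFSF9* was 4.10 against blood (adjusted p = 7.27e-07, edgeR, Benjamini-Hochberg) and 3.19 against liver CD8α high cells (adjusted p = 1.34e-05, edgeR, Benjamini-Hochberg), both higher in 5 of 5 pigs. Without that library the value against liver CD8α high cells was 3.89. The ligand thus differed between lrNK and both CD8α high populations, where its receptor *TNFRSF9* did not pass the test.

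*TNFSF14* encodes LIGHT, which binds the lymphotoxin β receptor and the receptor encoded by *TNFRSF14*. It had 6.24 to 15.4 CPM in blood, 6.86 to 20.0 CPM in liver CD8α high and 43.6 to 73.5 CPM in lrNK libraries, without overlap between lrNK and the others. Its log2 fold change was 2.50 against blood (adjusted p = 1.39e-05, edgeR, Benjamini-Hochberg) and 2.11 against liver CD8α high cells (adjusted p = 0.000102, edgeR, Benjamini-Hochberg), higher in 5 of 5 pigs each time. *LTBR* itself had reads in 1 library only.

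*TNFSF4*, the ligand of OX40, had 6.03 to 20.6 CPM in blood, 5.52 to 25.9 CPM in liver CD8α high and 35.7 to 73.3 CPM in lrNK libraries, again without overlap. Its log2 fold change was 2.16 against blood (adjusted p = 0.000386, edgeR, Benjamini-Hochberg) and 1.96 against liver CD8α high cells (adjusted p = 0.00104, edgeR, Benjamini-Hochberg), higher in 5 of 5 pigs each time. The ligand was therefore counted in every library and its receptor *TNFRSF4* in none.

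*TNFSF10* encodes TRAIL, whose own death receptors had no row of the names listed (*TNFRSF10A* and *TNFRSF10B*) and were not analysed here. Its mean was 143 ± 46.3 CPM in blood, 212 ± 20.8 CPM in liver CD8α high and 349.6 ± 95.3 CPM in lrNK cells. Against blood it rose by 1.29 on the log2 scale, higher in 5 of 5 pigs (adjusted p = 0.000391, edgeR, Benjamini-Hochberg). Over liver CD8α high cells it was 0.73, higher in 4 of 5 pigs (adjusted p = 0.0365, edgeR, Benjamini-Hochberg), and this call was lost without pig 1, 2, 4 or 5 (adjusted p = 0.134, 0.0807, 0.0673 and 0.133, edgeR, Benjamini-Hochberg) and without the liver CD8α high library of pig 1 (adjusted p = 0.0638, edgeR, Benjamini-Hochberg).

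**Figure D3:**
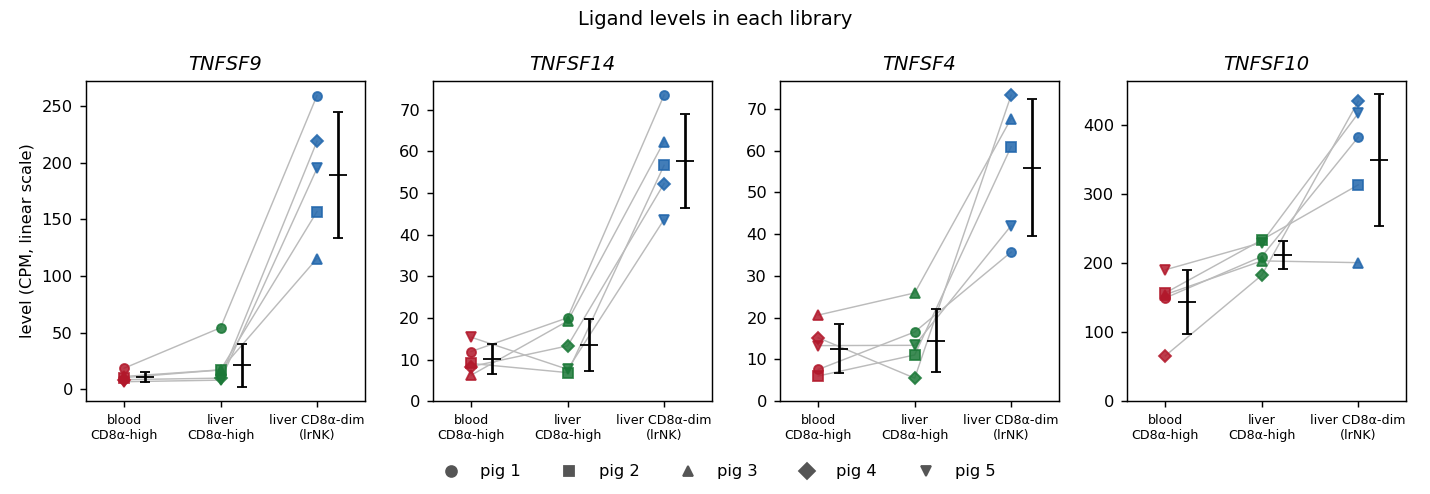
Level in CPM (y axis, linear scale, a separate range for each panel) of the ligands *TNFSF9*, *TNFSF14*, *TNFSF4* and *TNFSF10* in blood CD8α high, liver CD8α high and lrNK libraries, with 1 symbol shape per pig, grey lines joining libraries of a pig, and black bars for mean ± SD, n = 5. For *TNFSF9*, *TNFSF14* and *TNFSF4* all lrNK symbols lie above the others, whereas for *TNFSF10* pig 3 in lrNK (201 CPM) lies within the liver CD8α high range.

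*FASLG*, the ligand of FAS, had 0 to 9 counts in blood libraries and 0 in all liver CD8α high libraries, which allows up to 0.148 CPM there. In lrNK libraries it was counted 1 time in pig 3, 8 times in pig 4 and 0 times in the others. *FASLG* thus had few or no reads in each of the 3 populations, whatever their *FAS* level. *TNF*, the ligand of TNFR1 and TNFR2, had 9.02 ± 3.93 CPM in blood, 21.6 ± 6.76 CPM in liver CD8α high and 17.7 ± 6.22 CPM in lrNK cells. Every liver CD8α high library (14.2 to 28.7 CPM) was above every blood library (3.98 to 13.6 CPM). The log2 fold change of *TNF* between them was 1.25 (95% confidence interval 0.46 to 2.04), higher in 5 of 5 pigs, and did not pass the correction (unadjusted p = 0.00353, adjusted p = 0.544, edgeR, Benjamini-Hochberg). Between lrNK and blood cells it was 0.96, higher in 5 of 5 pigs (adjusted p = 0.0890, edgeR, Benjamini-Hochberg).

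The lymphotoxin subunits bind the lymphotoxin β receptor as a heterotrimer. *LTB* had 55.0 ± 16.8, 57.1 ± 14.2 and 53.9 ± 3.19 CPM in blood, liver CD8α high and lrNK cells, and *LTA* had 2.43 ± 1.38, 3.17 ± 2.49 and 4.84 ± 3.50 CPM. Between lrNK and blood cells the log2 fold change was -0.03 for *LTB* and 0.97 for *LTA*, and neither passed the test. *CD70*, the ligand of CD27, had 9 counts in the lrNK library of pig 5 and 0 in the other 14 libraries. *TNFSF15*, the ligand of DR3, had 0 in all 15, and *TNFSF18*, the ligand of GITR, had 0 to 12 counts per library. The ligands of CD27, DR3 and GITR thus had few or no reads, as did the receptors themselves. Whether such counts reflect little RNA or reads not assigned to the gene was not tested.

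Other receptors of the family were a list of 17, of which 15 had a row and 6 were tested. In lrNK cells 1 of the 6 was higher and 0 lower than in blood (median log2 fold change 1.18, with 3 values above 0 and 3 below), and 2 were higher and 0 lower than in liver CD8α high cells (median 1.47, with 4 above 0 and 2 below). Over all genes 8.62% and 6.96% were higher. *TNFRSF13C*, which encodes the BAFF receptor of B cells, had 2.18 ± 1.5 CPM in blood, 0.690 ± 0.976 CPM in liver CD8α high and 26.7 ± 18.7 CPM in lrNK cells. Its log2 fold change was 3.58 against blood (adjusted p = 0.00425, edgeR, Benjamini-Hochberg) and 5.23 against liver CD8α high cells (adjusted p = 0.000428, edgeR, Benjamini-Hochberg), higher in 5 of 5 pigs each time. In lrNK libraries of pigs 1 to 5 *TNFRSF13C* was at 21.2, 48.5, 5.36, 43.8 and 14.9 CPM, highest in pigs 2 and 4, which also had the highest B cell marker sums (954 and 966 CPM). *TNFRSF17*, which encodes BCMA of plasma cells, was at 2.08, 18.7, 44.8, 1.69 and 5.75 CPM in the same libraries, highest in pig 3, and had reads in 1 of 5 liver CD8α high libraries. Its log2 fold change against liver CD8α high cells was 5.89, higher in 5 of 5 pigs (adjusted p = 0.00216, edgeR, Benjamini-Hochberg). Without the lrNK library of pig 3 this value was 4.84 (adjusted p = 0.0107, edgeR, Benjamini-Hochberg), and with a pig left out it reached up to 7.60. The part of the B cell markers in these values was not tested.

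Below the receptors, 41 genes were tested: 11 TRAF adaptors and ubiquitin ligases, 11 death-domain and caspase genes, 7 deubiquitinases and other brakes, 10 kinases and 2 receptor sheddases. With so few genes in each list, the counts of calls are too small to set any list apart from all genes, of which 8.62% were higher and 9.6% lower in lrNK than in blood and 6.96% and 7.68% against liver CD8α high cells. In the TRAF list 1 gene was higher and 1 lower in lrNK than in blood (median log2 fold change 0.38), and 2 were higher and 0 lower than in liver CD8α high cells (median 0.31). *BIRC3*, which encodes the ubiquitin ligase cIAP2 of TNF receptor complexes, was higher in lrNK cells in 5 of 5 pigs, by 1.12 against blood and 0.85 against liver CD8α high cells on the log2 scale (adjusted p = 0.000129 and 0.00213, edgeR, Benjamini-Hochberg). *TRAF3IP3*, which encodes a TRAF3-interacting protein, was lower than in blood in 5 of 5 pigs (-0.75, adjusted p = 0.00190, edgeR, Benjamini-Hochberg). The linear ubiquitin ligase gene *RBCK1* was higher than in liver CD8α high cells in 5 of 5 pigs (0.96, adjusted p = 0.0157, edgeR, Benjamini-Hochberg), a call lost without pig 2, 3 or 5 (adjusted p = 0.0745, 0.111 and 0.0631). With the pig as a block, the adaptor gene *TRAF1* was also higher in lrNK cells in 4 of 5 pigs (1.81 and 2.07, adjusted p = 0.0114 and 0.00558, edgeR, Benjamini-Hochberg) and *TRAF3IP3* lower than in liver CD8α high cells in 5 of 5 (-0.45, adjusted p = 0.0227). *TRAF1* was at 73.6 CPM in lrNK cells of pig 3 and at 18.3 to 27.4 CPM in the others, and without that library the blocked fit still passed at 1.65 against blood (adjusted p = 0.0213, edgeR, Benjamini-Hochberg) and 1.87 against liver CD8α high cells (adjusted p = 0.0139).

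Of the death-domain and caspase genes, through which FAS signals, 2 were higher and 0 lower in lrNK than in blood (median 0.30). *CASP8*, the initiator caspase recruited to FAS, rose from 94.9 ± 14.96 to 159.5 ± 33.2 CPM, by 0.75 on the log2 scale and in 5 of 5 pigs (adjusted p = 0.00465, edgeR, Benjamini-Hochberg). In liver CD8α high cells of pigs 1 to 5 it was at 126, 122, 110, 169 and 140 CPM. Against these cells lrNK cells did not differ by the test (blocked by pig 0.25, adjusted p = 0.399, edgeR, Benjamini-Hochberg). Liver CD8α high cells did not pass against blood either (blocked by pig 0.49, adjusted p = 0.648, edgeR, Benjamini-Hochberg).

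Of the brakes, 1 gene was lower and 1 higher in each lrNK comparison (median 0.00 against blood and -0.14 against liver CD8α high cells). *TNFAIP3*, which encodes the NF-κB inhibitor A20, was lower than in blood in 4 of 5 pigs (-1.25, adjusted p = 0.00774, edgeR, Benjamini-Hochberg) and than in liver CD8α high cells in 5 of 5 (-1.04, adjusted p = 0.0294). The call against blood was lost without pig 2 or 4 (adjusted p = 0.0644 and 0.0738, edgeR, Benjamini-Hochberg). Its call against liver CD8α high cells was lost without pig 1, 2, 4 or 5 or the liver CD8α high library of pig 1 (adjusted p = 0.0964, 0.0634, 0.0751, 0.0865 and 0.0563, edgeR, Benjamini-Hochberg). *TNIP1*, whose product binds A20, was higher in 5 of 5 pigs in both comparisons (1.07 and 1.32, adjusted p = 0.0220 and 0.00677, edgeR, Benjamini-Hochberg). Without pig 3 neither passed (0.63 and 0.78, adjusted p = 0.107 and 0.0548, edgeR, Benjamini-Hochberg), and the call against blood was also lost without pig 1 or 5 or the lrNK library of pig 3 (adjusted p = 0.0758, 0.0514 and 0.0848). With the pig as a block the deubiquitinase gene *OTULIN* was also higher than in blood in 5 of 5 pigs (0.48, adjusted p = 0.0424, edgeR, Benjamini-Hochberg).

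Of the kinase genes 0 were higher and 2 lower in lrNK than in blood (median -0.20), beside 8.62% and 9.6% of all genes. *MAP3K14*, which encodes the NF-κB-inducing kinase of costimulatory receptor signalling, fell from 30.0 ± 5.07 to 12.6 ± 4.69 CPM without overlap (log2 fold change -1.27, lower in 5 of 5 pigs, adjusted p = 0.0113, edgeR, Benjamini-Hochberg). *MAP3K8*, which encodes the kinase TPL2, was lower in 4 of 5 pigs (-0.91, adjusted p = 0.0120, edgeR, Benjamini-Hochberg), a call lost without pig 2, 3 or 4 (adjusted p = 0.0629, 0.0631 and 0.0605). With the pig as a block *TAB1* and *IKBKG* were also lower, in 4 and 5 of 5 pigs (-0.97 and -0.65, adjusted p = 0.0283 and 0.0365, edgeR, Benjamini-Hochberg), but *IKBKG* was not without the lrNK library of pig 3 (-0.55, adjusted p = 0.0683). Against liver CD8α high cells edgeR's quasi-likelihood test called 0 kinase genes (median -0.17) and 0 death-domain and caspase genes (median 0.20), where 1 of each list had an unadjusted p under 0.05 and DESeq2 called 0. It called 0 of the sheddase genes *ADAM10* and *ADAM17*, whose products cut TNF and its receptors from the cell surface, in either lrNK comparison (median 0.28 and 0.30), where 1 and 0 had an unadjusted p under 0.05 and DESeq2 called 0.

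Between liver and blood CD8α high cells edgeR's quasi-likelihood test called 0 of the 58 genes tested from the 7 lists of ligands, other receptors and downstream genes, where 5 had an unadjusted p under 0.05 and DESeq2 called 0. The 95% intervals of the 5 receptors themselves reached from 0.50 for *TNFRSF1B* to 3.20 for *TNFRSF9* at their upper ends.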

How the data were processed

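RNA of 3 NK cell populations from 5 pigs was sequenced from the 3′ end (15 libraries). After trimming and alignment to Sscrofa11.1 with HISAT2, named in the submitters' processing notes without a version, the authors deposited raw read counts per gene. The counting tool, strand setting and rule for shared reads are not given in the sources used here. Libraries held 2003499 to 5680221 counts, and 0 columns were unmatched.

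Tests used edgeR 4.0.16 in R 4.3.3, fitted once to all 15 libraries (TMM, default filter, quasi-likelihood test, Benjamini-Hochberg adjustment over 10939 genes). A standard error is the log2 fold change divided by the square root of F, and intervals are 95%. A gene with no library of a population above 3 counts was taken as not detected there. Similarity and principal components used log2 CPM (prior count 2, computed from the deposited counts). Scripts were tested on simulated data. Coordinates come from a RefSeq table of Sscrofa11.1 that matched 29862 genes. Figures used Python 3.11.15 and matplotlib 3.10.9.

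The labels give the donor, and the study's methods state that blood and liver came from the same animals. Deviations from population means correlated more within pigs (mean r = 0.107, 15 pairs) than between them (-0.0265, 60 pairs). Alternatives were DESeq2 1.42.0, its size factors, no filter or a stricter one (10 counts in 5 libraries), the pig as a block, only the populations compared, and each pig left out.

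The members and lists were chosen with earlier results of these data known. Named are all members and their ligands, most genes called in each list, the 3 genes most like each called member, overlapping genes and leading or called markers. Protein and promoter sequences were not analysed here.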

Additional observations from a re-analysis of the deposited data

Results flagged for a closer look

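In 10 of 80 groups of 5 libraries, for the genes named, 1 library passed Dixon's 95% limit (a gap of over 0.71 of the range). That limit marks about 1 in 20 groups by chance for normally distributed values, which low counts are not. Where only 1 library of a group had reads, the gap is the whole range by construction, as for *LTBR* and *CD70* in lrNK cells. The 10 groups are therefore not set against that share. Among the receptors these were *CD27* in the liver CD8α high library of pig 1 (2.76 CPM), *TNFRSF18* in the liver CD8α high library of pig 2 (3.69 CPM), *TNFRSF25* in the blood library of pig 3 (6.24 CPM) and *LTBR* in the lrNK library of pig 2 (2.40 CPM). *TNFRSF17* stood apart in the blood library of pig 4, the lowest at 0 CPM, and in the liver CD8α high library of pig 3 (1.12 CPM). *TNFSF9* stood apart in the liver CD8α high library of pig 1 (54.2 CPM) and *RBCK1* in the blood library of pig 4 (66.5 CPM). *FASLG* stood apart in the lrNK library of pig 4 (2.25 CPM) and *CD70* in that of pig 5 (2.35 CPM). Most of these rest on at most 23 counts.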

How the results depend on the processing

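Of 15 results for the receptors, 10 kept their direction and their side of the threshold in every alternative run, among them *FAS* in lrNK cells against blood (2.48 to 3.21) and against liver CD8α high cells (1.69 to 2.18). Of 26 results for other listed genes 17 did. With the replicate block (the paired fit), *TNFRSF1B* against blood was called at -0.65 and *TNFRSF1A* against liver CD8α high cells at -0.66, 2 receptors were called against blood instead of 1 and 3 against liver CD8α high cells instead of 2 (of all genes 2120 instead of 1993 and 1716 instead of 1601), and the signs of *CD27* between liver and blood CD8α high cells (0.28) and of *LTB* between lrNK and blood (0.0329) turned. The block changed no other receptor call. Its *TNFRSF1A* call against liver CD8α high cells was lost without the lrNK library of pig 3 (-0.44, adjusted p = 0.0603, edgeR, Benjamini-Hochberg). Without a filter on low counts *TNFRSF1B* against blood was called at -0.60, which made 2 receptors there. With only the populations compared *TNFRSF1B* against liver CD8α high cells lost its call at -0.66, leaving 1 receptor. Of all genes, 7 differed between liver and blood CD8α high cells, against 22 with DESeq2, 18 without a filter, 16 with only these populations.

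With a pig or a single library left out, that count ran from 0 to 12, and all genes called between lrNK and liver CD8α high cells from 1051 to 1764. Receptors called ran from 1 to 2 in both lrNK comparisons. *TNFRSF1B* ran from -0.88 to -0.54 against liver CD8α high cells and from -0.82 to -0.45 against blood, *TNFRSF9* from -0.22 to 1.20 against liver CD8α high cells, *CD27* from -1.41 to 0.23 between liver and blood, and *LTB* from -0.20 to 0.11 between lrNK and blood. Leaving out the lrNK library of pig 3 or the liver CD8α high library of pig 1 alone was added after seeing the data. Without the former, *TNFRSF1B* was called against blood at -0.80, for a total of 2 receptors. Leaving out a pig removes 3 libraries from the fit, and the cause of the other changes was not tested. Some receptors had at most 23 counts per library (*CD27*, *TNFRSF18*, *TNFRSF25*, *LTBR*), and whether depth limits them was not tested.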
